A study of Mus musculus with 14 samples.

Results

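The 32 genes described here code for enzymes and carriers of the tricarboxylic acid (TCA) cycle, of pyruvate entry into mitochondria and of glutamate and malate-aspartate metabolism. They were taken by gene symbol, and all 32 were found among the 22255 genes of the expression table. By role, 15 are TCA cycle enzymes, counting the cytosolic forms Mdh1, Aco1 and Idh1 and the NADP-dependent Idh2. Of the others, 5 are subunits of the pyruvate dehydrogenase complex, 3 regulate that complex, 4 bring pyruvate in or make or use it, 3 handle glutamate and aspartate, and 2 are mitochondrial carriers. RNA of the 32 genes was measured in FPKM (fragments per kilobase of transcript, scaled to the mapped fragments of the library) in regulatory T cells (Tregs), the Foxp3-expressing T cells that restrain immune responses. The series asks how Treg expression differs among spleen, lymph node (LN) and tumor, and between tumor Tregs with and without Cd36, a receptor that takes up fatty acids.

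The 4 groups compared held Foxp3-YFP+ Tregs from mice aged 8 weeks. KO tumor (n = 3) held CD36-deficient Tregs from Yumm1.7 melanomas, a transplantable mouse melanoma line, in CD36floxed FoxP3-YFPCre+/- mice. WT tumor (n = 3) held Tregs from the same kind of melanoma in FoxP3-YFPCre+/+ mice, and LN (n = 4) and spleen (n = 4) held Tregs of that same FoxP3-YFPCre+/+ strain. All groups therefore carried the Foxp3-driven YFP-Cre, with different allele labels in KO and WT mice, so that floxed Cd36 and Cre dose cannot be told apart. The labels do not say whether libraries came from separate animals, or whether the animals behind the spleen and LN bore tumors. The p-values measure the spread between these libraries, which may be technical.

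The TCA cycle oxidises acetyl groups in the mitochondrial matrix and passes electrons on to the respiratory chain. Pyruvate enters mitochondria through a carrier built from Mpc1 and Mpc2 and is turned into acetyl-CoA by pyruvate dehydrogenase, which kinases switch off and phosphatases switch on. Glutamate feeds the cycle as 2-oxoglutarate, and the malate-aspartate shuttle uses cytosolic and mitochondrial pairs of malate dehydrogenase and aspartate aminotransferase to carry reducing equivalents inward. Mouse Tregs are known to rely on mitochondrial oxidation more than activated effector T cells do.

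The regions around the starts of Idh3g and Got1 are shown because these were the only members past the test in any comparison. Both come from RefSeq on GRCm38.p6 and run from 250 bases before to 50 bases after the annotated start. Idh3g (minus strand, chrX:73786848-73787147) has its start 131 bases from that of Ssr4, which runs the other way; the capitals mark the bases between the starts of both genes. Got1 (minus strand, chr19:43524556-43524855) holds the pentamer CCAAT, counted on both strands, 6 times, and the capitals mark those matches.
Idh3g: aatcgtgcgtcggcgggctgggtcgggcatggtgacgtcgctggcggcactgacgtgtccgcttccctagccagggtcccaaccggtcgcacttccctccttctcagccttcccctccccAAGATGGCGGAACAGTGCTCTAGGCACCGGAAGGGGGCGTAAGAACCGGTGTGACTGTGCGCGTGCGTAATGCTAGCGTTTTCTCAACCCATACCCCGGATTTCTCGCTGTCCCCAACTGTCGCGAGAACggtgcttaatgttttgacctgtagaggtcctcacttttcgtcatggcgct
Got1: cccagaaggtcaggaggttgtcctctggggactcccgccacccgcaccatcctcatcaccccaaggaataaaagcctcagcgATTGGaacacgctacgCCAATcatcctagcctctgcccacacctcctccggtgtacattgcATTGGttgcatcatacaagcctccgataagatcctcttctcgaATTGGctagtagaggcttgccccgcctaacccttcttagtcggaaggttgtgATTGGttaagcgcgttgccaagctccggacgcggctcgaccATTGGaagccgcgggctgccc
CCAAT was looked for after the Got1 sequence had been seen, as 1 of 6 motifs searched, and a match is no more than a description. At least 6 matches were found in 26 of 32851 RefSeq start windows of this length, or 0.079%. At least 1 CCAAT lay in 25 of 38 start windows of the 29 members with a RefSeq window (65.8%), against 37.4% of all windows. The Idh3g window holds no CCAAT and CCGGAAG once, a motif present in 8.86% of all windows. The other motifs, again on both strands, were the NRF1 palindrome (5.26% of members' windows against 4.60% of all), TGACGTCA (10.5% against 1.79%, in windows of 2 members), CACGTG (15.8% against 7.15%, in windows of 4 members) and TCAAGGTC (0% against 1.05%).

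Library totals ran from 492605 to 595391 FPKM, and 7469 to 8307 genes reached 1 FPKM. Estimated depth was 13.6 to 17.1 M reads (M, in units of 1e6) in KO tumor, 10.7 to 14.4 M in WT tumor, 18.4 to 21.4 M in LN and 11.5 to 13.9 M in spleen, so the LN libraries were the deepest. Cd36 was listed at 0, 1.06 and 0 FPKM in KO tumor and at 0 in every WT tumor and LN library, so its level does not check the genotype labels; it reached 0.598, 4.47 and 2.17 FPKM in spleen 2, 3 and 4. Foxp3 was present in all 14 libraries, at 25.7 to 42.4 FPKM in KO tumor, 3.54 to 11.97 in WT tumor, 15.4 to 32.3 in LN and 8.67 to 27.8 in spleen. Summed levels of 12 macrophage or monocyte markers were 308 to 415 FPKM in KO tumor, 1.18 to 107 in WT tumor, 4.04 to 36.1 in LN and 271 to 711 in spleen. At 1 FPKM in every library of a group were 7 of these 12 in KO tumor, 0 in WT tumor, 0 in LN and 6 in spleen; Cd14 was listed at 0 in all KO tumor, LN and spleen libraries, and Cd68 and Adgre1 in all WT tumor libraries. Summed levels of 9 B cell markers were 21.8 to 58.2 FPKM in KO tumor, 8.52 to 99.6 in WT tumor, 71.4 to 88.2 in LN and 110 to 367 in spleen. Summed levels of 6 conventional helper T cell markers were 142 to 271 FPKM in KO tumor, 113 to 196 in WT tumor, 15.8 to 48.6 in LN and 3.77 to 40.1 in spleen, with 4, 3, 2 and 1 of the 6 at 1 FPKM in every library of those groups. Il21 was listed at 0 in all tumor libraries of both genotypes and in LN, and Il17a in LN and spleen. Their mean log2(FPKM + 1), used as a score, was 2.51 to 3.48 in the 6 tumor libraries and 0.55 to 2.01 in the 8 lymphoid ones, and that of 10 Treg markers 7.29 to 7.94 against 6.81 to 7.24. Erythroid markers varied widely within groups, with scores of 2.63 to 8.02 in KO tumor, 3.30 to 7.62 in WT tumor, 2.52 to 5.66 in LN and 6.47 to 7.09 in spleen. In bulk libraries, fewer cells of a type and less RNA per cell cannot be told apart.

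The summed level of the 32 genes overlapped between the groups. It was 876 ± 41.0 FPKM in KO tumor (SD, n = 3), 916 ± 62.6 in WT tumor (n = 3), 958 ± 40.1 in LN (n = 4) and 931 ± 99.0 in spleen (n = 4), with overlapping ranges between 835 and 1070 FPKM. As a share of all FPKM in a library it was 0.155 to 0.178% in KO tumor, 0.144 to 0.166% in WT tumor, 0.179 to 0.189% in LN and 0.150 to 0.190% in spleen, so every LN library, from the deepest group, lay above every tumor library. The 3 glutamate and aspartate enzymes summed to 193 ± 17.8 FPKM in KO tumor and 180 ± 7.80 in WT tumor, against 121 ± 18.0 in LN and 115 ± 17.5 in spleen, and the lowest tumor library (173 FPKM) lay above the highest lymphoid one (139.8 FPKM). The 15 TCA cycle enzymes, cytosolic forms included, summed to 409 ± 31.2 FPKM in KO tumor, 353 ± 89.96 in WT tumor, 430 ± 44.9 in LN and 488 ± 97.7 in spleen, and these overlap. The 4 genes of pyruvate entry and malate-to-pyruvate conversion summed to 85.5 to 94.0 FPKM in KO tumor, 58.4 to 92.6 in WT tumor, 108 to 138 in LN and 40.9 to 101 in spleen, so every LN library lay above all others. The sums of the pyruvate dehydrogenase complex, its regulators and the carriers overlapped between all groups.

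**Figure D1:**
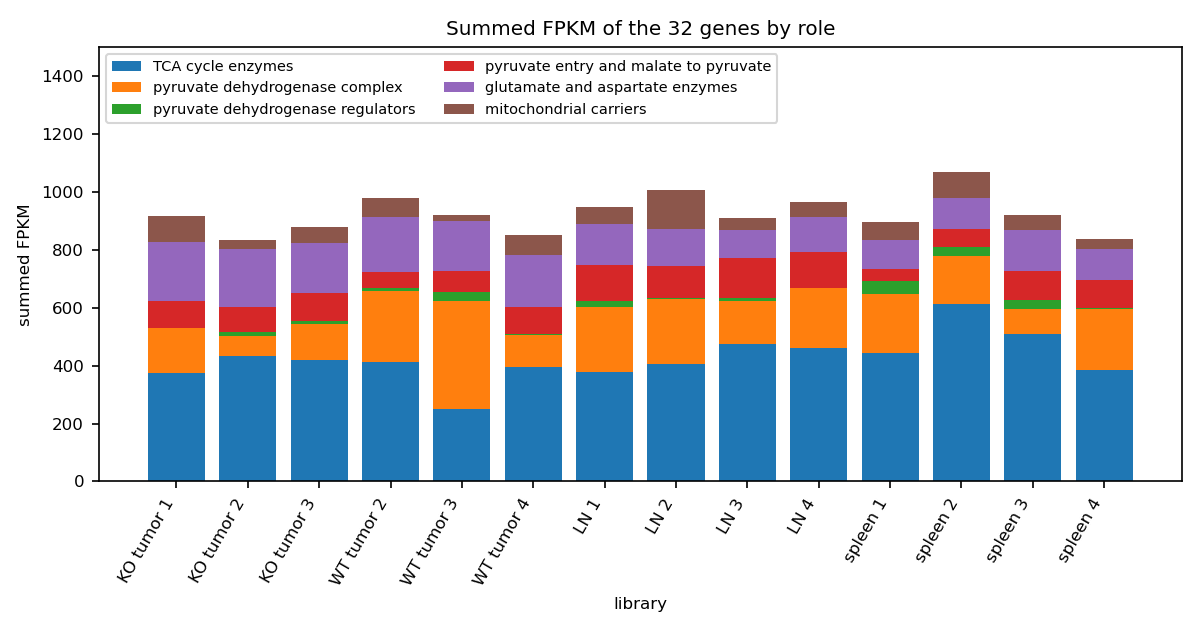
Summed FPKM of the 32 genes in each of the 14 libraries, stacked by role, with libraries along the horizontal axis. The bars end between 835 and 1070 FPKM, and the glutamate and aspartate part is larger in each of the 6 tumor libraries than in any of the 8 lymphoid ones. Of the genes in that part, Got1 alone separates these libraries.

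Members were ranked by FPKM, which is scaled by transcript length. The ranking is rough, since near-identical copies leave the levels of some members, Pdhb among them, uncertain. By the median over 14 libraries, Pdhb (146 FPKM) and Idh3g (132) led, followed by Glud1 (76.0), Mdh2 (72.5) and Mpc2 (62.7). At the other end, Dld, Idh1, Pdk2, Aco1, Fh1 and Pcx had medians under 1 FPKM, and Pcx reached 1 FPKM in 1 library only. Of the 448 values 25 were 0, all in Idh1 (2 libraries), Aco1 (3), Pdk2 (6), Fh1 (6) and Pcx (8). The files hold no read counts and list genes that every cell uses, such as fumarase, at 0, so that a 0 is given as listed and sets no limit on the level. Libraries of a group varied strongly: for the 10 members with medians from 10 to 50 FPKM the median SD within groups was 0.78 on the log2(FPKM + 1) scale, against 0.80 for all 2428 genes of that level. For the 6 members above 50 FPKM it was 0.62, against 0.44 for 1116 genes.

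**Figure D2:**
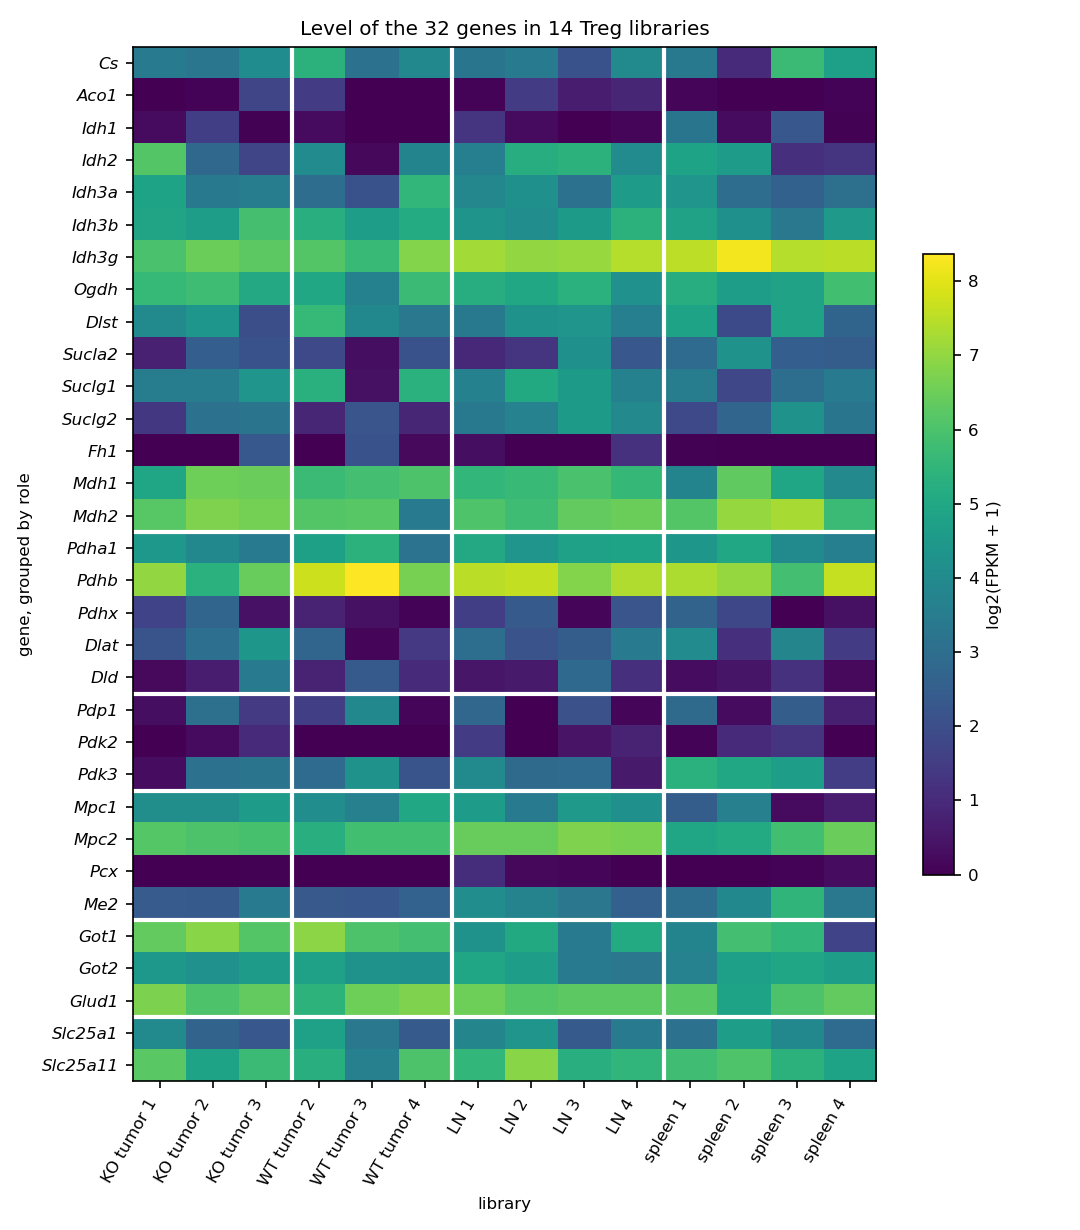
Levels of the 32 genes (rows, grouped by role) in the 14 libraries (columns, grouped as KO tumor, WT tumor, LN and spleen), as log2(FPKM + 1) by colour. Idh3g is brighter in all LN and spleen columns than in the tumor columns, Got1 the reverse, and the rows of Aco1, Fh1, Pdk2 and Pcx are dark nearly throughout.

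Few members differed between groups beyond the spread of the libraries. Differences are log2(FPKM + 1) values, a scale that shrinks the changes of low genes, and limma's p was adjusted over all genes tested, with 0.05 as the threshold. In WT tumor against spleen 1 of 29 tested members passed (Idh3g, lower), where 1.90% of 9616 genes did. In KO tumor against spleen 1 of 31 passed (Idh3g, lower), where 2.80% of 10147 genes did. These comparisons share the spleen libraries. No LN or spleen group was CD36-deficient, so KO tumor differs from LN and spleen in tissue and genotype together. Comparisons of KO tumor with LN or spleen therefore cannot tell tissue from genotype. No member passed in WT tumor against LN (0 of 29; 3.04% of genes), in KO tumor against LN (0 of 31; 3.42%), in LN against spleen (0 of 29; 0.499%) or in KO tumor against WT tumor (0 of 25; 0.280%) by limma. At an unadjusted limma p under 0.05 the members were 3, 3, 2 and 1 in those comparisons, or 10.3%, 9.68%, 6.90% and 4% of those tested, against 15.6%, 13.1%, 10.4% and 8.64% of genes. They were 5 in WT tumor against spleen (17.2% against 14.3% of genes) and 4 in KO tumor against spleen (12.9% against 13.9%). A comparison of both tumor groups with both lymphoid groups, in which genotype is partly mixed with tissue, was added after the others had been seen. It had 5 members at an unadjusted limma p under 0.05 (16.1% against 17.9% of genes). At the adjusted threshold it called 2 of 31 (Idh3g lower, Got1 higher), where 5.46% of genes passed. The members that passed were also the 2 whose tumor and lymphoid libraries did not overlap, as was so for 2.48% of genes. Members whose groups did not overlap numbered 4 of 29 in WT tumor against spleen (11.5% of genes), 4 of 29 in WT tumor against LN (17.0%) and 1 of 29 in LN against spleen (7.87%). They numbered 2 of 25 in KO tumor against WT tumor (14.5%), 3 of 31 in KO tumor against spleen (13.4%) and 4 of 31 in KO tumor against LN (16.9%). With 0 to 4 members each, these counts lie near the shares of all genes.

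The median difference of the tested members lay farthest from that of all genes in LN against spleen and in WT tumor against LN. It was 0.13 in KO tumor against WT tumor, where all genes had 0.07, with 18 of 25 members positive. In WT tumor against spleen the members' median was -0.10 and that of all genes -0.07, and in WT tumor against LN it was -0.32 beside -0.12. In KO tumor against spleen it was 0.09 beside 0.02, in KO tumor against LN -0.05 beside -0.01, and in LN against spleen 0.28 beside 0.02. No test of these medians was made.

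**Figure D3:**
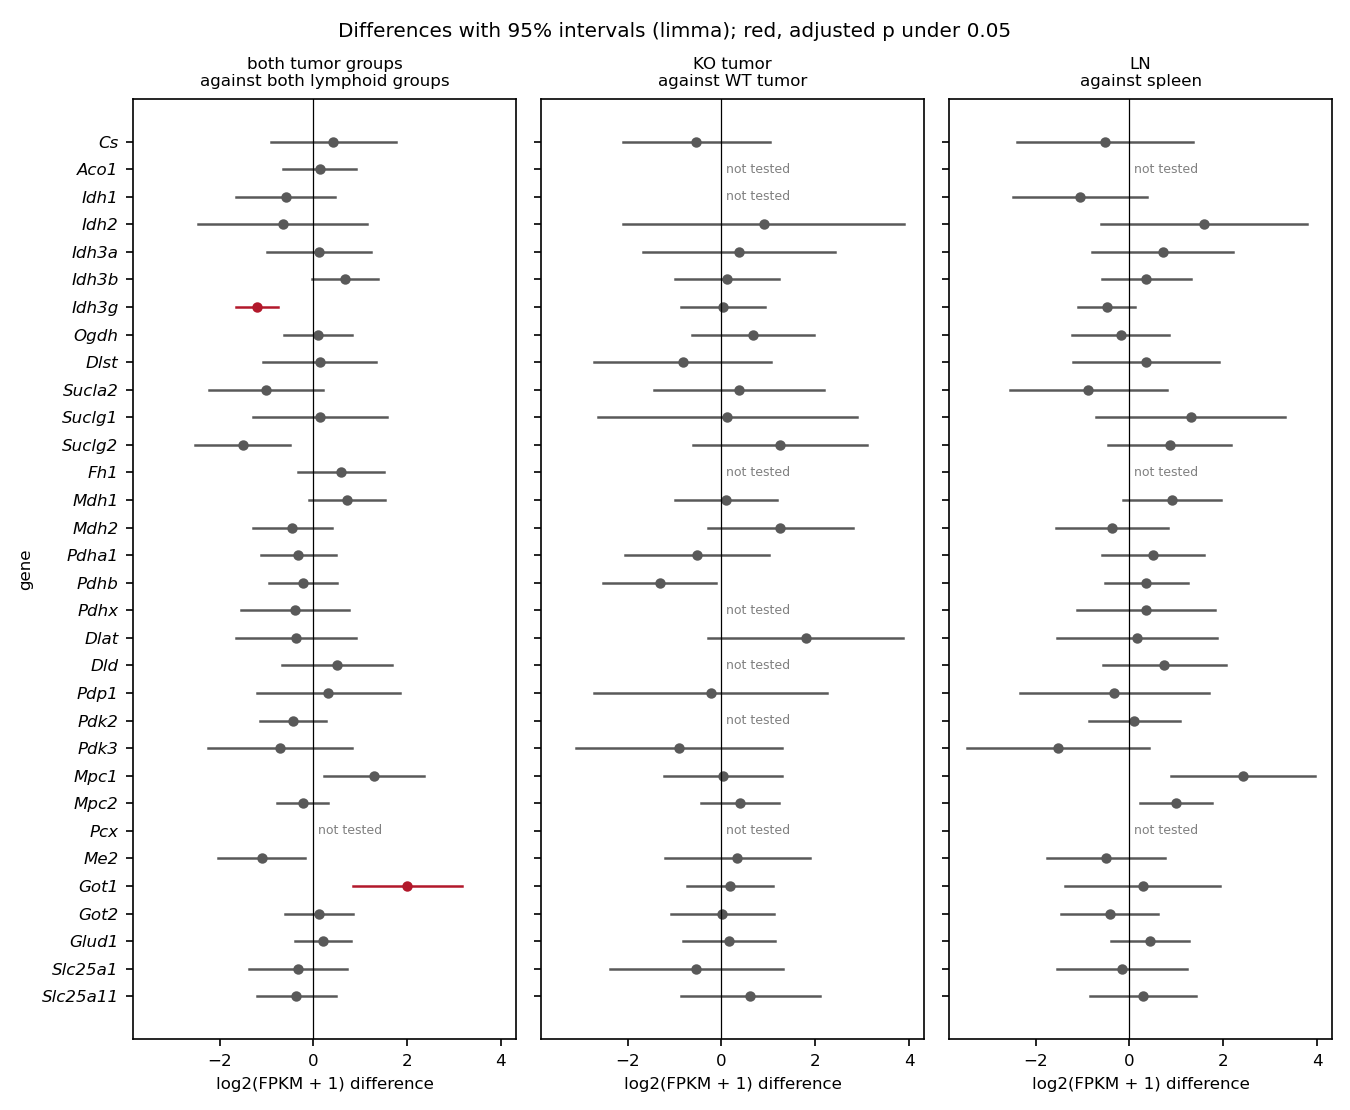
Difference in log2(FPKM + 1) of each member (points) with its 95% interval from limma (lines) in 3 comparisons; members that failed the filter on low values are marked as not tested. Red marks an adjusted p under 0.05, which only Idh3g and Got1 reach, both in the comparison of tumor with lymphoid groups; no member is red in KO tumor against WT tumor or LN against spleen.

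Idh3g, a regulatory subunit of the NAD-dependent isocitrate dehydrogenase that makes 2-oxoglutarate in the cycle, was lower in tumor Tregs of both genotypes. It had 60.9, 88.9 and 75.3 FPKM in KO tumor, 68.8, 50.03 and 111 FPKM in WT tumor, 146, 129, 135 and 171 FPKM in LN, and 185, 300, 171 and 180 FPKM in spleen. Every tumor library lay below every lymphoid library, while the KO and WT tumor libraries overlapped, as did LN and spleen. The difference from spleen was -1.47 ± 0.30 in WT tumor (SE, limma adjusted p = 0.0239) and -1.44 ± 0.30 in KO tumor (adjusted p = 0.0131). From LN it was -0.98 ± 0.31 in WT tumor (adjusted p = 0.113) and -0.95 ± 0.30 in KO tumor (adjusted p = 0.111), neither past the limma threshold; without WT tumor 4 the difference of WT tumor from LN was -1.28 (adjusted p = 0.0413). Between KO and WT tumor it was 0.03 ± 0.40, with a 95% interval from -0.87 to 0.93 (limma adjusted p = 0.994).

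The pooled difference of Idh3g, tumor minus lymphoid, was -1.21 ± 0.21 (limma adjusted p = 0.00214) and stayed past the threshold without any 1 of the 14 libraries, the adjusted p then running from 0.000712 to 0.00845. The separate calls were less stable. The WT tumor against spleen call was lost without WT tumor 2 (adjusted p = 0.0721), WT tumor 3 (0.0919) or spleen 2 (0.0606), and the KO tumor against spleen call without KO tumor 1 (0.0718) or KO tumor 3 (0.0518), in limma. Macrophage marker levels of KO tumor overlapped those of spleen, those of WT tumor overlapped LN, and B cell marker levels were highest in spleen. Helper T cell and Treg marker scores separated tumor from lymphoid libraries as Idh3g did. The part of these cells in the Idh3g values was not tested.

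The partner subunits of Idh3g did not show this pattern. Idh3b ran from 24.3 to 58.3 FPKM in KO tumor and 24.4 to 37.9 in WT tumor, against 16.1 to 40.2 in LN and 9.24 to 27.0 in spleen, with a pooled difference of 0.68 ± 0.33 (limma adjusted p = 0.301). Idh3a, the catalytic subunit, ran from 9.55 to 27.7 FPKM in KO tumor, 3.32 to 45.1 in WT tumor, 7.91 to 23.5 in LN and 5.03 to 19.7 in spleen, overlapping throughout. The ratio of Idh3g to Idh3b was 2.13, 3.65 and 1.29 in KO tumor, 1.82, 2.05 and 3.24 in WT tumor, 7.63, 8.00, 5.95 and 4.26 in LN, and 6.85, 17.1, 18.5 and 8.13 in spleen. The tumor and lymphoid ratios did not overlap; this ratio was chosen after the values were seen, from 13 such ratios computed, and gets no test. Ssr4, the neighbour across the shared start region and a subunit of the translocon-associated complex of the endoplasmic reticulum, had 365, 107 and 269 FPKM in KO tumor, 119, 116 and 246 in WT tumor, 195, 168, 227 and 183 in LN, and 128, 385, 397 and 306 in spleen. All 4 groups overlapped for Ssr4, and its pooled difference was -0.35 ± 0.30 (limma adjusted p = 0.617).

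Suclg2, the GTP-forming beta subunit of succinyl-CoA ligase, had the smallest p of the members in WT tumor against LN. It had 1.58, 7.82 and 8.40 FPKM in KO tumor, 0.867, 3.58 and 0.848 FPKM in WT tumor, 9.49, 12.1, 22.6 and 14.2 FPKM in LN, and 2.62, 5.70, 18.6 and 8.54 FPKM in spleen. Both tumor groups lay below all LN libraries and overlapped spleen. The difference of WT tumor from LN was -2.57 ± 0.66 (limma adjusted p = 0.0519), just outside the threshold, and the pooled one -1.51 ± 0.48 (adjusted p = 0.0861). Under 4 of 7 alternative settings the limma adjusted p of the difference of WT tumor from LN was 0.0448 to 0.0488, past the threshold. Under the others it did not pass and reached 0.0827. With 1 library left out it passed in 0 of 7 fits (limma adjusted p 0.0557 to 0.149). A processed pseudogene, Gm15163, matches 38.7% of the Suclg2 transcript at 98.9% identity, so its reads may be shared. The ATP-forming partner Sucla2 had at most 3.27 FPKM in WT tumor and at least 4.57 FPKM in spleen, and its other groups overlapped. The shared alpha subunit Suclg1 had at least 11.7 FPKM in LN and at most 10.4 FPKM in spleen, and both tumor groups overlapped them, between 0.294 and 39.4 FPKM.

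The malate dehydrogenases were among the more abundant members. Mdh1, the cytosolic enzyme, had 30.0, 91.0 and 86.5 FPKM in KO tumor, 51.3, 57.8 and 64.2 FPKM in WT tumor, 45.2, 48.3, 61.0 and 46.1 FPKM in LN, and 12.8, 78.7, 30.3 and 14.2 FPKM in spleen. It overlapped between all groups, and the difference of KO tumor from spleen was 1.23 ± 0.54 (limma adjusted p = 0.318). Mdh2, the mitochondrial enzyme, had 72.7, 107 and 97.8 FPKM in KO tumor, 68.9, 72.3 and 10.3 FPKM in WT tumor, 65.4, 53.3, 81.4 and 88.3 FPKM in LN, and 69.2, 132, 154 and 51.1 FPKM in spleen. The KO tumor libraries lay just above the WT tumor ones, WT tumor 4 being far below the rest. That difference was 1.25 ± 0.69 (limma adjusted p = 0.698), and 0.37 without WT tumor 4 (adjusted p = 0.790).

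The other TCA cycle members showed no difference past the threshold. Cs, the citrate synthase that starts the cycle, ran from 8.81 to 15.6 FPKM in KO tumor, 7.92 to 40.9 in WT tumor, 3.34 to 14.9 in LN and 1.03 to 50.7 in spleen. Ogdh, which carries the first step of 2-oxoglutarate oxidation, ran from 32.1 to 53.5 FPKM in KO tumor, 11.9 to 51.6 in WT tumor, 17.9 to 39.4 in LN and 24.5 to 56.1 in spleen. Idh2, the NADP-dependent mitochondrial isocitrate dehydrogenase, was uneven between replicates, at 2.34 to 68.9 FPKM in KO tumor, 0.128 to 15.5 in WT tumor, 11.2 to 40.9 in LN and 1.204 to 28.0 in spleen. Dlst, the succinyl-transferring subunit beside Ogdh, ran from 2.64 to 47.2 FPKM over all libraries. Fumarase Fh1 and the cytosolic enzymes Aco1 and Idh1 reached at most 3.91, 2.34 and 8.63 FPKM.

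Among pyruvate dehydrogenase subunits, Pdhb, the beta subunit of the first enzyme of the complex, had the smallest p of the members in KO tumor against WT tumor. It had 129, 39.3 and 85.2 FPKM in KO tumor, 212, 329 and 99.3 FPKM in WT tumor, 181, 194, 112 and 165 FPKM in LN, and 162, 129.8, 57.5 and 195 FPKM in spleen. KO tumor 1 lay above WT tumor 4, so the tumor groups overlapped. The difference was -1.32 ± 0.54 (limma adjusted p = 0.542). The processed pseudogene Gm6123 matches 71.3% of the Pdhb transcript at 97.0% identity, which leaves its count uncertain. Pdha1, the alpha subunit that pairs with Pdhb, ran from 9.65 to 20.8 FPKM in KO tumor, 8.11 to 40.6 in WT tumor, 19.4 to 32.2 in LN and 11.3 to 30.6 in spleen.

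Dlat, the acetyl-transferring core subunit, had 3.48, 7.36 and 20.6 FPKM in KO tumor, 5.66, 0.111 and 1.60 FPKM in WT tumor, 7.14, 3.43, 4.54 and 10.1 FPKM in LN, and 15.3, 1.21, 13.1 and 1.77 FPKM in spleen. All groups overlapped, and the difference of KO from WT tumor was 1.80 ± 0.93 (limma adjusted p = 0.660). Pdhx and Dld, which dock and complete the complex, reached at most 5.59 and 9.62 FPKM. Of the regulators, the inactivating kinase Pdk3 ran from 0.225 to 8.26 FPKM in KO tumor, 3.51 to 18.1 in WT tumor, 0.515 to 14.997 in LN and 1.85 to 39.9 in spleen. The activating phosphatase Pdp1 reached 13.98 FPKM in WT tumor 3 and under 8 FPKM in the other libraries, and the kinase Pdk2 stayed under 2 FPKM.

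Mpc1, 1 of the 2 subunits of the mitochondrial pyruvate carrier, was low in spleen. It had 16.6, 16.5 and 23.3 FPKM in KO tumor, 16.2, 11.4 and 31.3 FPKM in WT tumor, 22.9, 9.81, 21.7 and 17.5 FPKM in LN, and 4.54, 11.6, 0.197 and 0.593 FPKM in spleen. KO tumor lay above all spleen libraries, while WT tumor and LN each overlapped spleen through spleen 2. The difference from spleen was 2.52 ± 0.71 in KO tumor (limma adjusted p = 0.0732), 2.49 ± 0.77 in WT tumor (0.136) and 2.42 ± 0.71 in LN (0.199), none past the threshold. Without spleen 2 it became 3.15 in KO tumor (limma adjusted p = 0.0142) and 3.12 in WT tumor (0.0457), so that this library decides both calls. At the estimated depth the Mpc1 values of spleen 3 and 4 are about 2.63 and 6.52 reads. The processed pseudogenes Mpc1-ps and Gm8219 match 27.2% and 25.2% of the Mpc1 transcript, at 100% and 95.9% identity, so its reads may be shared. A noncoding transcript on the opposite strand overlaps 23.1% of Mpc1's exon bases.

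Mpc2, the partner subunit, was more abundant than Mpc1 in every library. It had 70.1, 64.9 and 60.5 FPKM in KO tumor, 38.1, 55.8 and 56.1 FPKM in WT tumor, 83.9, 85.2, 107 and 102 FPKM in LN, and 29.2, 33.6, 56.7 and 86.8 FPKM in spleen. KO tumor lay above WT tumor, and both lay below LN. The differences were 0.39 ± 0.37 between KO and WT tumor (limma adjusted p = 0.837), -0.92 ± 0.39 between WT tumor and LN (0.264) and 0.99 ± 0.36 between LN and spleen (0.315), none past the threshold. Me2, the mitochondrial malic enzyme that turns malate into pyruvate, ran from 4.205 to 10.2 FPKM in KO tumor, 3.82 to 5.17 in WT tumor, 4.93 to 16.2 in LN and 7.16 to 43.8 in spleen. Its pooled difference was -1.10 ± 0.44 (limma adjusted p = 0.189). Pcx, which makes oxaloacetate from pyruvate, was listed at 0 in 8 libraries and highest in LN 1, at 1.14 FPKM.

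**Figure D4:**
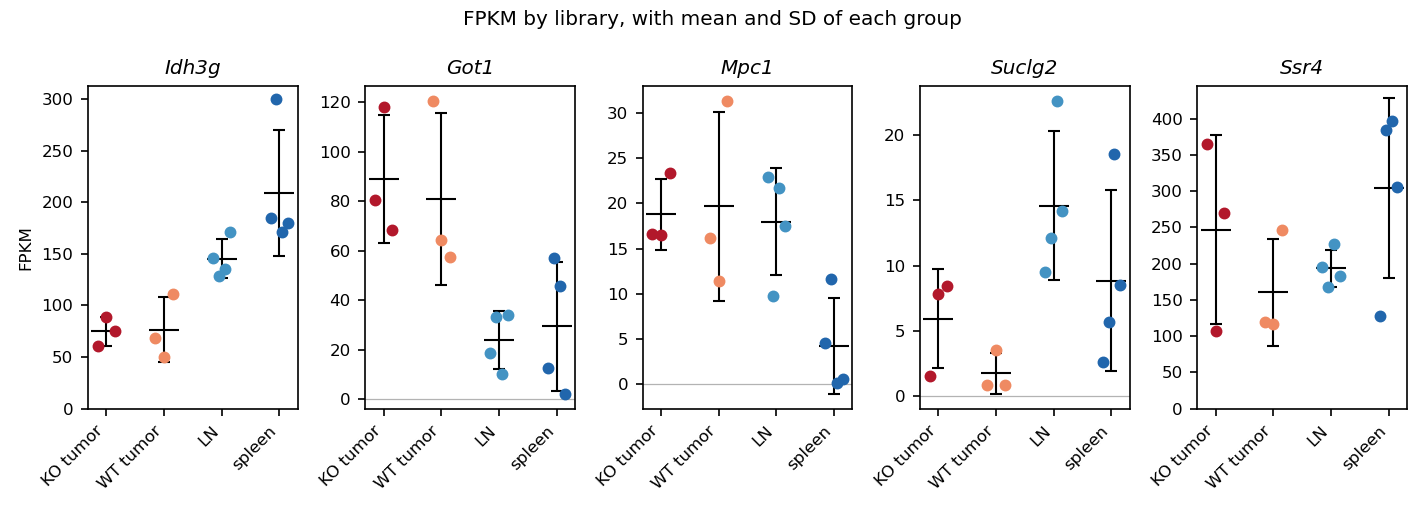
FPKM in each library (points) with the mean and SD of each group (dash and bars) for Idh3g, Got1, Mpc1, Suclg2 and the neighbour gene Ssr4; n = 3 in KO tumor and WT tumor, n = 4 in LN and spleen. Idh3g runs from 50.03 to 111 FPKM in tumor libraries against 129 to 300 in lymphoid ones, Got1 from 57.5 to 121 against 2.201 to 57.0, and Mpc1 is lowest in spleen 3 and 4.

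Got1, the cytosolic aspartate aminotransferase of the malate-aspartate shuttle, was higher in tumor than in lymphoid Tregs with both genotypes pooled. It had 80.4, 118 and 68.3 FPKM in KO tumor, 121, 64.4 and 57.5 FPKM in WT tumor, 18.8, 33.1, 10.1 and 34.0 FPKM in LN, and 12.8, 57.0, 45.8 and 2.201 FPKM in spleen. Every tumor library lay above every lymphoid one, by a narrow margin between WT tumor 4 and spleen 2, and the KO and WT tumor libraries overlapped. Got1 passed only in the pooled comparison, which was added after the others had been seen and partly mixes genotype with tissue. The pooled difference was 2.01 ± 0.55 (limma adjusted p = 0.0428), and leaving out 1 library at a time moved it between 1.58 and 2.28 and ended the call for 11 of 14 libraries, all but spleen 2, 3 and 4 (adjusted p from 0.0182 to 0.104). In the separate comparisons it was 2.23 ± 0.78 for KO tumor against spleen (limma adjusted p = 0.168), 2.06 ± 0.83 for WT tumor against spleen (0.278), 1.95 ± 0.78 for KO tumor against LN (0.254) and 1.78 ± 0.83 for WT tumor against LN (0.324). Between KO and WT tumor it was 0.18 ± 0.41, with a 95% interval from -0.74 to 1.09 (limma adjusted p = 0.957). The helper T cell and Treg marker scores divided the libraries in the same way, and their part in the Got1 values was not tested.

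The mitochondrial aminotransferase Got2 overlapped between all groups. It ran from 17.9 to 23.5 FPKM in KO tumor, 17.5 to 26.4 in WT tumor, 9.07 to 29.1 in LN and 12.01 to 29.8 in spleen. The ratio of Got1 to Got2 was 3.83, 6.58 and 2.91 in KO tumor and 4.57, 3.53 and 3.29 in WT tumor, against 0.644, 1.36, 0.992 and 3.75 in LN and 1.06, 2.24, 1.54 and 0.0877 in spleen. LN 4 reached into the tumor range and the other 7 lymphoid libraries lay below it. The Got2 level, and with it this ratio, is uncertain, since Gm10874 matches 64.7% of its transcript, on the opposite strand, and Got2-ps1 51.1%, at 98.8% and 99.1% identity. Glud1, glutamate dehydrogenase, which releases 2-oxoglutarate from glutamate, was high everywhere, at 64.3 to 105 FPKM in KO tumor, 41.3 to 106 in WT tumor, 70.0 to 91.4 in LN and 27.9 to 81.4 in spleen. Glud-ps and Gm43444 match 19.4% and 8.5% of the Glud1 transcript, both at 97.6% identity, so its reads may be shared. The carriers overlapped as well: Slc25a1, which exports citrate, ran from 3.78 to 26.9 FPKM over all libraries, and Slc25a11, which exchanges malate for 2-oxoglutarate, from 11.6 to 117 FPKM.

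Pairs of related enzymes were compared within libraries as log2 ratios of FPKM + 1. Over 6 pairs and 4 comparisons, 0 of 24 exact two-sided permutation tests had a p under 0.05, and the smallest adjusted p was 0.457. The designs allow no p below 0.0571 for 3 against 4 libraries, 0.10 for 3 against 3 and 0.0286 for 4 against 4. Mdh1 to Mdh2 averaged 0.60 ± 1.67 in WT tumor and -1.79 ± 0.75 in spleen (SD, n = 3 and 4; exact permutation p = 0.0571). The WT tumor mean rests on WT tumor 4, since the 3 libraries had -0.42, -0.32 and 2.53, and without it the difference from spleen was 1.42 (exact permutation p = 0.133), against 2.39 with it. Got1 to Got2 averaged 1.86 ± 0.26 in WT tumor and -0.30 ± 1.87 in spleen (SD, n = 3 and 4; exact permutation p = 0.0571), and in KO tumor it averaged 2.02 ± 0.59 (n = 3).

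**Figure D5:**
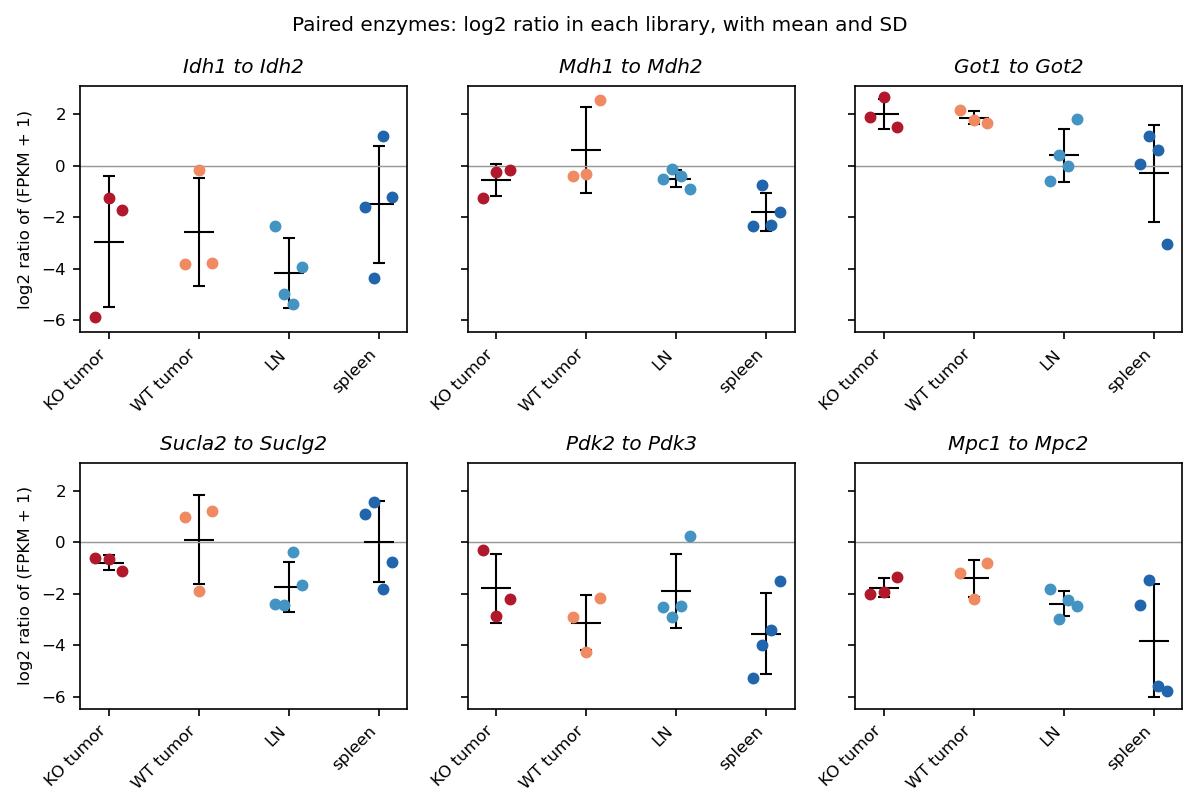
Log2 ratio of FPKM + 1 for 6 pairs of related enzymes in each library (points), with group mean and SD (dash and bars); n = 3 in KO tumor and WT tumor, n = 4 in LN and spleen. Got1 to Got2 is above 0 in all 6 tumor libraries, and Mpc1 to Mpc2 is far lower in spleen 3 and 4 than in the other libraries.

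Other genes of these pathways were taken from a list of 42 genes found in the table, among them aconitase 2, succinate dehydrogenase, glutaminase and lactate dehydrogenase. Of 30 tested in both tumor groups against both lymphoid groups, 2 were higher and 1 lower past the limma threshold, where 5.46% of all genes passed, with a median difference of 0.02 beside -0.06 for all genes. Ldha, which reduces pyruvate to lactate, had 974, 814 and 586 FPKM in KO tumor, 699, 1034 and 788 FPKM in WT tumor, 327, 412, 430 and 385 FPKM in LN, and 390, 405, 247 and 392 FPKM in spleen. It did not overlap, and its pooled difference was 1.12 ± 0.15 (limma adjusted p = 0.000281). Acod1, which makes itaconate from cis-aconitate and is best known from macrophages, had 0.795, 2.56 and 2.40 FPKM in KO tumor and 5.72, 107 and 12.5 FPKM in WT tumor, and 0 in each of the 8 lymphoid libraries. It passed in WT tumor against spleen (limma adjusted p = 0.0106) and not in KO tumor against WT tumor (adjusted p = 0.428). Macrophage or monocyte marker scores were 0.12 to 1.36 in WT tumor and 2.57 to 3.175 in KO tumor. In LN they were 0.33 to 0.92 and in spleen 2.78 to 3.97. Their relation to Acod1 was not tested. Acss1, which makes acetyl-CoA from acetate in mitochondria, had 0.132, 4.198 and 1.06 FPKM in KO tumor, 0.592, 1.48 and 0.825 FPKM in WT tumor, 14.3, 12.1, 14.3 and 26.1 FPKM in LN, and 22.7, 23.3, 0.701 and 6.64 FPKM in spleen. Spleen 3 overlapped the tumor range, and the pooled difference was -2.58 ± 0.59 (limma adjusted p = 0.0147).

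In KO tumor against WT tumor 0 of 28 tested genes of that list passed by limma, as did 0 of 11 of a list of 18 mitochondrial regulators, where 0.280% of all genes passed. Of 13 regulators tested in tumor against lymphoid Tregs, where 5.46% of genes passed, Hif1a, the oxygen-sensitive transcription factor, was the one that passed. It averaged 146 FPKM in KO tumor and 150 FPKM in WT tumor, against 37.8 in LN and 48.1 in spleen, a pooled difference of 1.82 ± 0.24 (limma adjusted p = 0.000170).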

How the data were processed

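RNA was extracted from isolated Tregs with a low-input protocol and libraries were made by Smart-Seq2, per the labels' protocols. Per the submitters' processing notes, the tools included Cufflinks 2.2.1, Cuffdiff, DESeq2, Bowtie2 2.2.9, TopHat2 2.1.1 and Trimmomatic on mm10 (GRCm38), with no role or order stated. Annotation and strand use were not stated in those notes. The authors deposited FPKM values, 1 table per library, with no read counts, so no count test was run. Library depth was estimated as the smallest number of reads that turned at least 90% of low values (up to 20 reads, transcripts of at least 800 bases) into whole reads within 0.1; 93.0 to 96.0% came out whole.

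The 32 members and all gene lists were chosen with earlier results of these data known. Of 22255 gene identifiers 22196 matched GENCODE M21 on GRCm38, all 32 members among them. Genes with at least 1 FPKM in at least 3 libraries of a fit were tested with robust limma-trend (limma 3.58.1, R 4.3.3) on log2(FPKM + 1), with Benjamini-Hochberg adjustment over all genes tested. WT tumor, LN and spleen shared a fit (9616 genes), as did both tumor groups (8210 genes) and all 14 libraries (10147 genes, for the KO tumor against LN or spleen and the pooled comparison). Members past the threshold, and the 3 with the smallest p in each comparison, were described in full; Me2, the partner subunits, the ratios within complexes and the start-region neighbours were described after their values were seen. Ratios of related enzymes were compared by exact two-sided permutation tests. The limma step was run on simulated data with normal spreads and no filter on low values. Changes were added there to genes of higher level only, so that run does not cover low genes. Replicate numbers were not blocked in the main fits. Correlations of same-numbered libraries' deviations ran from -0.028 to 0.030, which cannot show whether such libraries came from the same animal. Alternatives were a pseudocount of 0.1, no filter, scaling to the protein-coding total, array weights, other sets of libraries, a replicate block and leaving out each library.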

Additional observations from a re-analysis of the deposited data

Results flagged for a closer look

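Of 64 tests of single members in the LN and in the spleen group, 5 had 1 library that stood apart from the other 3 by Dixon's criterion on the log2(FPKM + 1) scale. For normal values chance flags about 1 in 20, but the values here include 0s and values near 0. The number flagged is therefore not set against chance. Idh3g was at 299.9 FPKM in spleen 2, against 171 to 185 FPKM in the other spleen libraries, and it is 1 of the 3 libraries whose removal ends the WT tumor against spleen call, beside WT tumor 2 and WT tumor 3. Slc25a11 was at 117.3 FPKM in LN 2, against 38.1 to 45.2 FPKM in the other LN libraries. Idh1 was at 1.421 FPKM in LN 1 (others 0.0188 to 0.179), Pcx at 1.142 FPKM in LN 1 (others 0 to 0.127), and Fh1 at 0.02875 FPKM in spleen 1 (others 0). With the others at 0, any Fh1 value above 0 would have been flagged.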

How the results depend on the processing

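Counts of members past the threshold are small, so a change of 1 member moves them. In WT tumor against spleen the count went to 0 without the filter on low values, in a fit of the 2 groups only and with the replicate block (limma adjusted p of Idh3g 0.0633, 0.0965 and 0.106), and ran from 0 to 1 when 1 library was left out. In WT tumor against LN it was 1 with a pseudocount of 0.1, with scaling to the protein-coding total, in a fit of all 14 libraries and in a fit of the 2 groups only, each time Suclg2 (adjusted p 0.0478, 0.0459, 0.0488 and 0.0448). With 1 library left out the count was 0 to 1, the 1 being Idh3g without WT tumor 4 (limma adjusted p 0.0413), and Suclg2 did not pass. In KO tumor against LN it was 1 with array weights (Idh3g, adjusted p 0.0466), and in KO tumor against spleen 0 to 2 with 1 library left out. In tumor against lymphoid groups it was 1 with a pseudocount of 0.1 and without the filter (Got1 lost, adjusted p 0.0523 and 0.124) and 1 to 3 with 1 library left out; the block exchanged Got1 (adjusted p 0.0620) for Suclg2 (0.0269). Whether a shared replicate number marks a shared animal is not stated. The replicate block left the other member counts as they were. With 1 library left out the members' median difference ran across 0 in WT tumor against spleen (-0.28 to 0.06), KO tumor against WT tumor (-0.06 to 0.37) and KO tumor against LN (-0.20 to 0.12), and ran from -0.42 to -0.14 in WT tumor against LN, 0.06 to 0.48 in LN against spleen, 0.0015 to 0.33 in KO tumor against spleen and -0.26 to -0.04 in tumor against lymphoid groups. Under the other settings it ran across 0 in WT tumor against spleen (-0.10 to 0.07) and reached 0.43 in KO tumor against WT tumor. Scaling to the protein-coding total moved the share of higher genes among calls from 62.3% to 51.4% in WT tumor against LN. Of 882 member values under alternatives 36 changed sign, none of a called difference: under scaling Mpc2 (WT tumor against spleen) was -0.0103, Mpc1 (WT tumor against LN) -0.0500 and Mdh2 (KO tumor against spleen) 0.0164, under array weights Dlat (LN against spleen) was -0.00423, and with the block Mpc2 (WT tumor against spleen) was -0.16. Leaving out 1 library at a time gave these members ranges across 0: in WT tumor against spleen, Mpc2 -0.16 to 0.36; in WT tumor against LN, Mpc1 -0.31 to 0.38, Pdhb -0.14 to 0.72; in LN against spleen, Got1 -0.57 to 0.83, Pdhb -0.00472 to 0.58, Dlat -0.33 to 0.63; in KO tumor against WT tumor, Idh3g -0.24 to 0.33, Got1 -0.0455 to 0.50, Mpc1 -0.27 to 0.42, Mdh1 -0.17 to 0.62; in KO tumor against spleen, Suclg2 -0.85 to 0.15, Mdh2 -0.29 to 0.23; in KO tumor against LN, Mpc1 -0.14 to 0.24, Dlat -0.16 to 0.97; in both tumor groups against both lymphoid groups, Pdhb -0.42 to 0.00965. With a pseudocount of 0.1 the ratios Idh1 to Idh2 (KO tumor against WT tumor) were 0.0492, Sucla2 to Suclg2 (WT tumor against spleen) -0.0793 and Pdk2 to Pdk3 (WT tumor against spleen) -0.99. Leaving out 1 library gave these ratios ranges across 0: in KO tumor against WT tumor, Idh1 to Idh2 -1.21 to 1.09, Got1 to Got2 -0.16 to 0.41; in LN against spleen, Got1 to Got2 -0.20 to 1.18; in WT tumor against spleen, Sucla2 to Suclg2 -0.53 to 1.07, Pdk2 to Pdk3 -0.15 to 1.10. Marker scores are means of log2(FPKM + 1). Leaving out 1 library gave these scores ranges across 0: in WT tumor against LN, macrophage or monocyte -0.24 to 0.38, dendritic cell -0.0465 to 0.26, neutrophil -0.0650 to 0.0257; in KO tumor against WT tumor, dendritic cell -0.0908 to 0.39, neutrophil -0.000502 to 0.0279, erythroid -1.44 to 1.64, melanoma -0.0816 to 0.0226; in WT tumor against spleen, neutrophil -0.00728 to 0.0211, CD8 T or NK cell -0.32 to 0.0581, fibroblast or endothelial -0.0950 to 0.0443, erythroid -1.48 to 0.68, melanoma -0.0720 to 0.0322; in LN against spleen, neutrophil -0.0162 to 0.0746, conventional helper T cell -0.11 to 0.36; in KO tumor against LN, neutrophil -0.0539 to 0.0368, fibroblast or endothelial -0.16 to 0.0886; in KO tumor against spleen, fibroblast or endothelial -0.0263 to 0.22, erythroid -1.76 to 0.93. The causes were not tested.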

Other observations

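Sdha, the flavoprotein subunit of succinate dehydrogenase, which links the cycle to the respiratory chain, is no member and was chosen after its values were seen. It had 32.2, 66.7 and 45.7 FPKM in KO tumor and 16.4, 3.28 and 15.7 FPKM in WT tumor, against 49.9, 44.9, 77.0 and 54.2 FPKM in LN and 96.3, 41.8, 69.6 and 12.7 FPKM in spleen. The tumor groups did not overlap, and the difference of KO from WT tumor was 2.14 ± 0.66 (limma adjusted p = 0.353). That of WT tumor from LN was -2.39 ± 0.66 (adjusted p = 0.0709), and neither passed the threshold. Ldhb, the lactate dehydrogenase subunit that favours lactate oxidation, also chosen after its values were seen, had 67.5 to 106 FPKM in LN, against 4.42 to 41.3 FPKM in spleen, 2.43 ± 0.64 higher without passing (limma adjusted p = 0.149).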
